A study of Chromochloris zofingiensis with 14 samples.

Results

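The thioredoxin-related genes of the green alga Chromochloris zofingiensis were taken from the deposited gene annotation as every chromosomal gene whose name starts with TRX, CITRX or PDI or whose description holds the word thioredoxin. This gave 14 genes of 15369 in all and of 14427 on the 19 chromosomes. No gene outside the chromosomes met the rule. The description named thioredoxin in 8 of the 14. A further 6 were chosen by name alone, and 2 by description alone. The word in the names and descriptions is the annotation's own. No protein sequence was used here to check it.

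The series holds 14 cultures of strain SAG 211-14, a unicellular alga known for carotenoid and lipid storage, with 1 RNA library for each growth condition. Cultures were kept in Proteose medium under light of 40 (low), 100 (medium) or 400 (high) μmol photons m−2 s−1 or in 48 h of dark, in medium lacking iron, phosphorus, sulfur or nitrogen for 1 h, with 20 mM glucose for 72 h, or without oxygen for 4 h in medium light or in the dark. Oxidative stress was set by 2 h in 1 mM hydrogen peroxide or by rose bengal, which turns light into singlet oxygen. Rose bengal was 5 μM, with 1 h of light after 0.5 h of dark or 3 h of light after 1 h of dark. The cultures lacking a nutrient or given glucose, hydrogen peroxide or rose bengal had medium light, which for rose bengal followed the dark. Expression was not analysed here, since the annotation holds gene models and no value of any culture, so what follows describes gene structure and position without a comparison between conditions and without replicates.

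Thioredoxins are small proteins that reduce disulfide bonds in other proteins through a pair of cysteines that cycles between the reduced and the oxidised state. In chloroplasts of plants and algae, light-driven electrons pass from ferredoxin through ferredoxin-thioredoxin reductase to thioredoxins, which switch enzymes of carbon fixation and other pathways on or off. Protein disulfide isomerases carry thioredoxin domains too, and form and rearrange disulfide bonds in the endoplasmic reticulum.

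The 14 genes fell into 4 groups by name. The thioredoxins proper were TRX1, TRX2, TRX3, TRX4 and CITRX2. The genes TRXD62 and TRXD9-2 were described as holding a thioredoxin domain. FTRC and FTRV encode the subunits of ferredoxin-thioredoxin reductase. The names PDI-1, PDI2, PDI3, PDI4 and PDIA are those of disulfide isomerases. For PDI4 the description reads thioredoxin instead, and for PDI-1 it reads disulfide isomerase. TRX3, TRX4, PDI2, PDI3 and PDIA had no description. All 14 models were predicted by AUGUSTUS, a gene prediction program. Each gene had 1 transcript, and no gene span went past the coding segments, so every length below is a coding length or a gap between coding segments. All 14 coding lengths were multiples of 3.

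The coding regions had a median of 487.5 bases and a range of 309 to 1374, against a median of 1062 bases over chromosomal genes and 1102.5 over the 492 named ones. Of the 14 genes, 12 were below the chromosomal median, as 49.9% of chromosomal genes were, and 10 were below the lower quartile of 579 bases, as 24.9% were. These 10 were all genes except TRXD9-2, PDI2, PDI4 and PDIA. The curve of coding length shows the 5 thioredoxins and both reductase subunits in the lower part of the distribution, and the disulfide isomerase names spread from short to long. No test was made of these shares, because the genes were chosen with results of these data known.

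**Figure D1:**
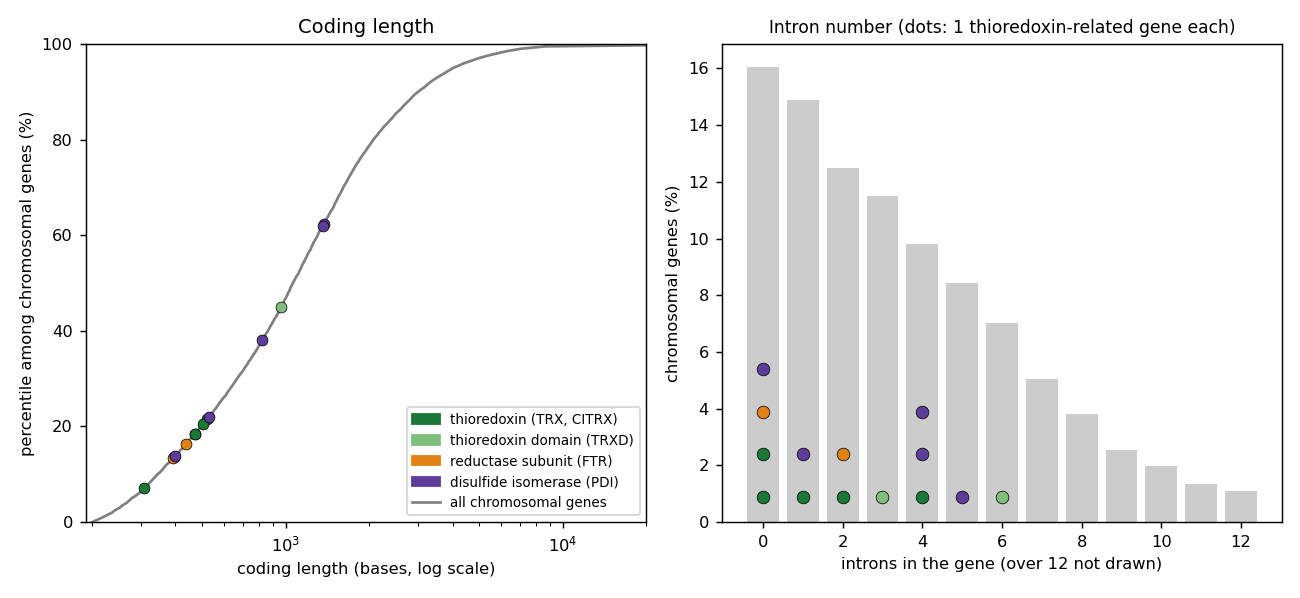
Left, percentile among chromosomal genes (%) against coding length (bases, log scale), with the curve of all 14427 chromosomal genes in grey and 1 dot for each of the 14 thioredoxin-related genes coloured by group. Right, share of chromosomal genes (%, bars) by number of introns, with the 14 genes as dots stacked above their own intron number. The longest coding regions, 1362 and 1374 bases, belong to PDIA and PDI4, and 4 genes have no intron.

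The thioredoxins proper lay within a narrow range of 309 to 519 coding bases, with a mean of 455 ± 84.1 bases (SD, n = 5 genes). TRX4 (Cz07g25040, chromosome 7, 2517329 to 2517637, plus strand) was the shortest of all 14, with 309 bases or 103 codons in 1 segment. CITRX2 (Cz02g27090, chromosome 2, 2735390 to 2735908, plus strand) was also a single segment, of 519 bases or 173 codons. CITRX is known in tomato as a thioredoxin that binds a disease resistance protein, and its relative in Arabidopsis works in plastid transcription. It was the only named gene starting with CITRX, so the 2 in its name had no partner among the names.

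TRX1 and TRX2 had the same coding length, 471 bases or 157 codons, but were cut differently. TRX1 (Cz14g25110, chromosome 14, 2546778 to 2548211, minus strand) was split into 5 segments of 106, 63, 51, 128 and 123 bases. TRX2 (Cz13g13140, chromosome 13, 1349744 to 1350760, plus strand) was split into 3 segments of 157, 155 and 159 bases. The introns took up 67.2% of the span of TRX1 and 53.7% of that of TRX2. The introns of TRX1 stood at 8.49 per 1000 coding bases, at percentile 98.5 of chromosomal genes. The chromosomal median was 2.90. TRX3 (Cz03g29230, chromosome 3, 2995728 to 2996434, minus strand) had 504 bases or 168 codons, in 2 segments of 228 and 276 bases.

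The genes described as holding a thioredoxin domain were the most finely divided after TRX1. TRXD62 (Cz05g17150, chromosome 5, 1765696 to 1766694, plus strand) had only 396 bases, in 4 segments of 85, 107, 81 and 123 bases, which gives 7.58 introns per 1000 coding bases at percentile 97.3. TRXD9-2 (Cz13g17240, chromosome 13, 1788614 to 1790726, plus strand) had the most introns of the 14 genes, 6, in 963 coding bases. Its 7 segments had 310, 119, 60, 127, 86, 138 and 123 bases. Both descriptions, thioredoxin domain containing 6 and 9, follow the names of human genes. The human protein numbered 9 is known as a partner of the cytosolic chaperonin.

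The subunits of ferredoxin-thioredoxin reductase were close in coding length and differed in introns. FTRC (Cz01g33170, chromosome 1, 3376689 to 3377363, plus strand), described as the beta subunit, had 438 bases in segments of 155, 178 and 105 bases. FTRV (Cz12g03230, chromosome 12, 383890 to 384282, plus strand), described as the alpha subunit, had 393 bases in 1 segment. The deposited model score, which runs from 0.01 to 1 over chromosomal genes and whose meaning is not stated there, was 1 for FTRV and 0.37 for FTRC, the lowest of the 14 genes.

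The disulfide isomerase names covered a wider range, 399 to 1374 bases. PDI4 (Cz12g23180, chromosome 12, 2353471 to 2356209, minus strand) had 458 codons in 6 segments of 150, 444, 214, 128, 257 and 181 bases. PDIA (Cz13g18300, chromosome 13, 1890663 to 1892807, minus strand) had nearly the same number, 454 codons, in 5 segments of 147, 75, 127, 209 and 804 bases. The last segment of PDIA alone held 59.0% of its coding region. PDI2 (Cz17g07120, chromosome 17, 741330 to 744117, minus strand) had 822 bases in segments of 204, 72, 116, 269 and 161 bases. PDI3 (Cz17g07100, chromosome 17, 739023 to 739844, minus strand) had 399 bases in segments of 240 and 159 bases. PDI-1 (Cz03g29090, chromosome 3, 2945966 to 2946496, minus strand) had 531 bases in 1 segment. PDI3 lay within the range of the thioredoxins and PDI-1 just above it, whereas PDI4 and PDIA were longer than every TRX and TRXD gene.

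**Figure D2:**
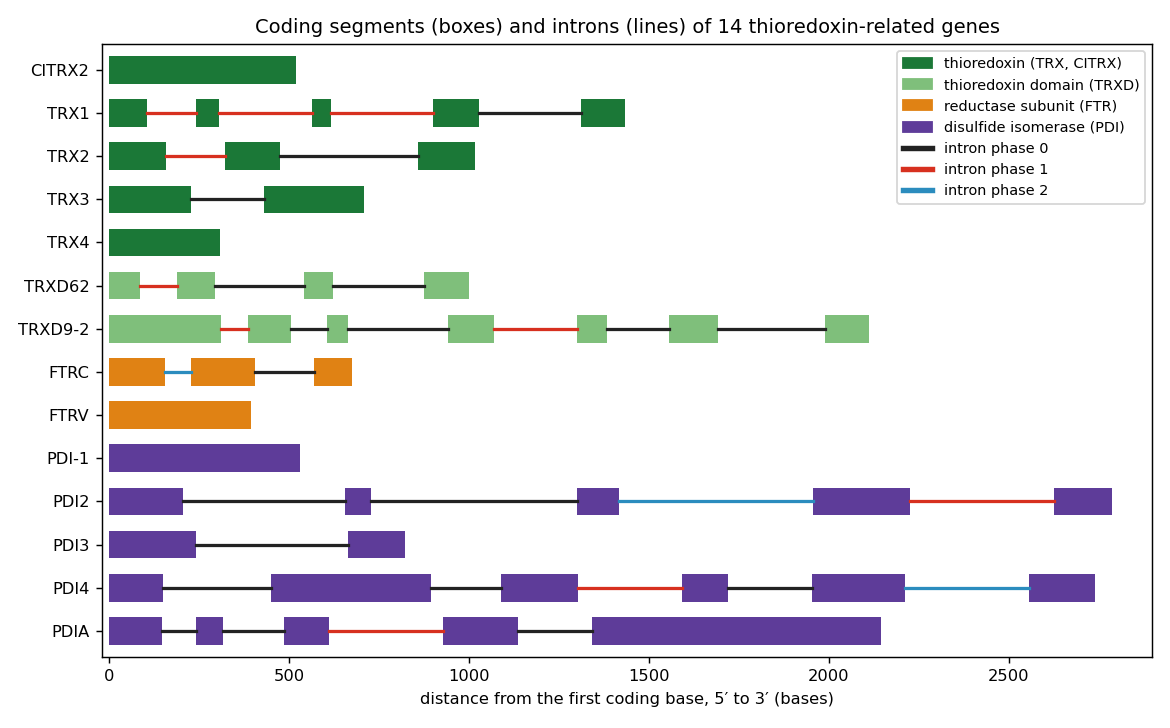
Coding segments (boxes, coloured by group) and introns (lines, coloured by phase) of the 14 genes, drawn to scale from the first coding base in the gene's own direction (bases). CITRX2, TRX4, FTRV and PDI-1 are single boxes, and PDI2 and PDI3 have the widest gaps.

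CITRX2, TRX4, FTRV and PDI-1 had no intron, 4 of the 14 genes or 28.6%. Among chromosomal genes 16.1% had none, and among named chromosomal genes 6.30%. The 4 genes lay on chromosomes 2, 7, 12 and 3. Over all 14 the mean was 2.29 ± 2.05 introns (SD, n = 14 genes), against 4.08 over chromosomal genes and 4.88 over named chromosomal genes. Per coding base the order was different, with 3.57 introns per 1000 coding bases in the 14 genes together, 2.77 in chromosomal genes and 3.72 in named chromosomal genes. The 14 genes thus had fewer introns per gene and shorter coding regions, and per coding base they lay between both backgrounds.

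Intron lengths ran from 73 to 572 bases with a median of 250, against 260 over chromosomal introns and 273 over those of named chromosomal genes. The extremes belonged to few genes. All 4 introns of PDI2, of 452, 572, 541 and 401 bases, and the 1 intron of PDI3, of 423 bases, were longer than those of every other member. They lay between percentiles 92.4 and 99.2 of chromosomal introns. Both genes lie on chromosome 17, where introns had a median of 314 bases and an upper quartile of 400 bases, so all 5 introns were above the upper quartile of their own chromosome as well. At the other end were the first introns of FTRC with 73 bases, TRXD9-2 with 75, PDIA with 95 and TRXD62 with 103, and the second intron of TRXD9-2 with 101. All 5 lay at or below percentile 4.56 of chromosomal introns.

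The first intron was the shortest of its gene in 6 of the 8 genes with 2 or more introns, namely FTRC, TRX1, TRX2, TRXD62, TRXD9-2 and PDIA. It was not in PDI2 and PDI4. Over chromosomal genes with 2 or more introns the share was 41.2%. This share depends on the number of introns, and at the chromosomal share for genes with the same number of introns it would be 3.56 of 8. The median first intron of the 8 genes was 119.5 bases and the median later one 269, against 235 and 264 over chromosomal genes. In TRX1 the first intron had 136 bases and the others 260, 284 and 283. In TRX2 the introns had 164 and 382 bases.

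**Figure D3:**
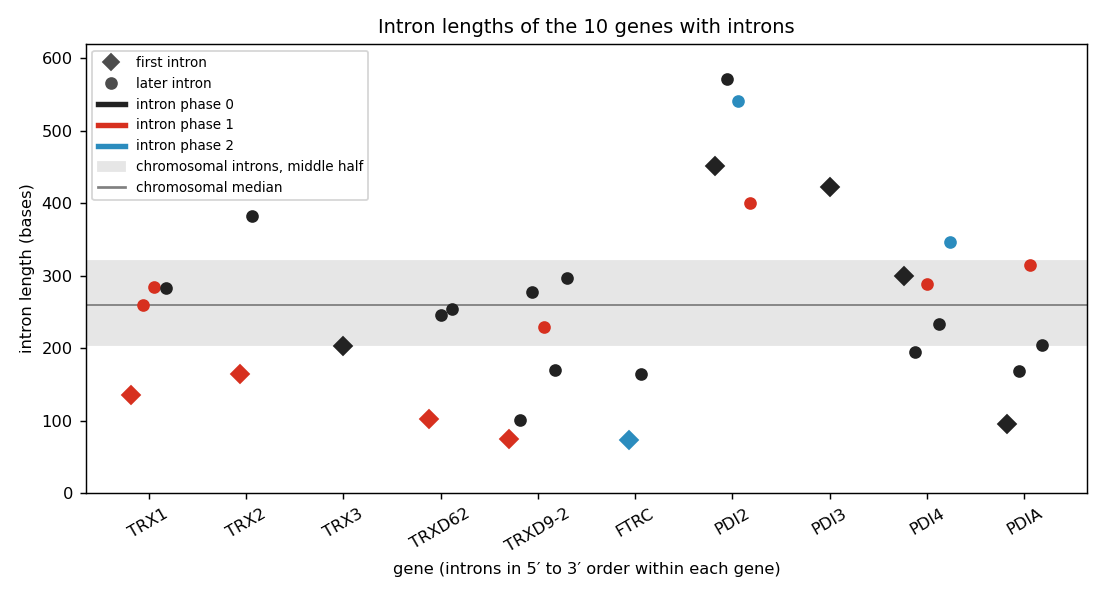
Length of each intron (bases) in the 10 genes that have introns, in 5′ to 3′ order within each gene, with diamonds for the first intron, circles for later ones and colour for phase. The grey band spans the chromosomal quartiles of 205 to 320 bases and the line marks the median of 260. The diamonds of 6 genes lie below all of that gene's circles, and all points of PDI2 and PDI3 lie above the band.

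Intron phase tells where a codon is cut. A phase 0 intron lies between codons, a phase 1 intron after the first base of a codon and a phase 2 intron after the second. Of the 32 introns, 19 were of phase 0, 10 of phase 1 and 3 of phase 2. The share of phase 0 was 59.4%, against 52.9% over chromosomal introns. Phase 1 made up 31.3% against 24.9%, and phase 2 made up 9.38% against 22.2%. The 3 introns of phase 2 were the first of FTRC, the third of PDI2 and the fifth of PDI4. None of the 16 introns in the TRX and TRXD genes was of phase 2.

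In all 4 TRX or TRXD genes with 2 or more introns, TRX1, TRX2, TRXD62 and TRXD9-2, the first intron was of phase 1. The only intron of TRX3 was of phase 0. No other member with 2 or more introns had a first intron of phase 1, since those of PDI2, PDI4 and PDIA were of phase 0 and that of FTRC of phase 2. Over chromosomal genes with 2 or more introns this share was 28.2%. TRX1 carried 3 phase 1 introns in a row before its last one. The last intron was of phase 0 in 8 of the 10 genes with introns, all but PDI2 and PDI4, against 51.6% of chromosomal genes with introns.

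TRX1, TRXD62 and TRXD9-2 ended with a coding segment of the same length, 123 bases or 41 codons, and in all 3 it began at a codon boundary. Among the 12110 chromosomal genes with 2 or more segments, 39 had such a last segment, or 0.322%. The 682 lengths seen for last segments in this phase had a median of 3 genes each, so this length was a common one. Of these 39 genes, 5 were named, and the other named ones were GTR2, a glutamyl-tRNA reductase of 2655 coding bases, and PCT2, described as a cytidinediphosphate diacylglycerol synthase. TRX2 and PDI3 shared another last segment of 159 bases or 53 codons, also a common length, which 59 chromosomal genes or 0.487% had. The segment before it differed, with 155 bases in TRX2 and 240 in PDI3. The last segment of the 10 genes had a median of 159 bases, against 261.5 over chromosomal genes with introns. That comparison was not matched for coding length, which was shorter in the thioredoxin-related genes as well. These shared lengths were noticed in the data, and equal length does not show equal sequence.

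**Figure D4:**
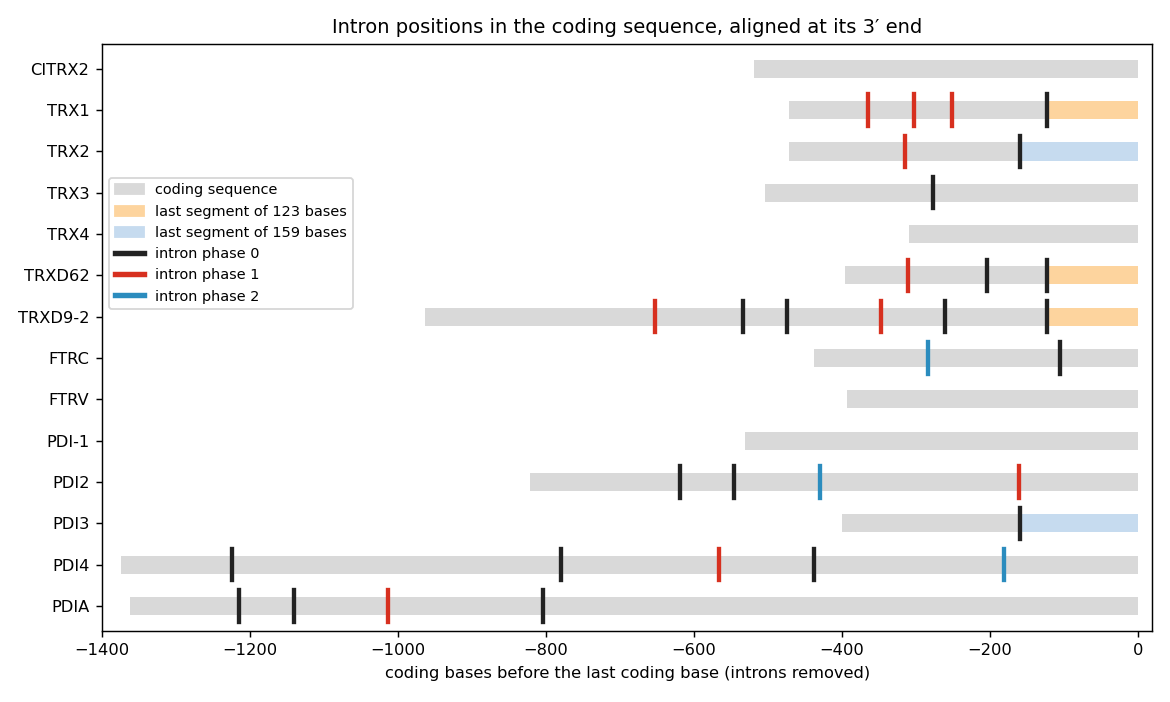
Coding sequence of each of the 14 genes with the introns removed, aligned at the last coding base (coding bases before it), with vertical bars for intron positions coloured by phase. The last segments of 123 bases in TRX1, TRXD62 and TRXD9-2 and of 159 bases in TRX2 and PDI3 are tinted.

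Counted back from the last coding base, other introns of these genes did not fall at the same place. The next introns were 251 coding bases from the end in TRX1, 204 in TRXD62 and 261 in TRXD9-2. The phase 1 introns of TRXD62 and TRX2 lay 311 and 314 bases from the end, a difference of 1 codon. Among internal segments, a length of 128 bases with the same phase was found in TRX1 and PDI4, and one of 127 bases with the same phase in TRXD9-2 and PDIA. These were found in 62 and 77 chromosomal genes, of 9964 that have an internal segment.

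Longer shared runs were sought over all chromosomal genes as at least 2 internal segments in a row with identical length and phase. PDIA was the 1 member with such a run, out of 6 with 2 or more internal segments. Of chromosomal genes with 2 or more internal segments, 48.3% shared such a run with another gene. With lengths allowed to differ by 3 bases, 6 members had such a run, as did 90.0% of those chromosomal genes. Neither share was matched to the number of internal segments, which was 2 to 5 in the 6 members. PDIA shared its segments of 127 and 209 bases with Cz13g13130 (chromosome 13, 1346682 to 1349347), an unnamed gene of 1086 coding bases. It shared its segments of 75 and 127 bases with Cz06g11040 (chromosome 6, 1114028 to 1115833) and Cz06g11060 (chromosome 6, 1117876 to 1119378), unnamed genes of 708 and 519 coding bases. In all, 4 genes shared a run of 2 with PDIA. No run of 3 was found for any of the 5 members with at least 3 internal segments. Of chromosomal genes with at least 3, 4.24% had one, a share not matched to segment number either. Cz13g13130 is also the direct neighbour of TRX2.

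The 14 genes lay on 9 of the 19 chromosomes, 7 on each strand. Chromosome 13 held 3 of them, TRX2, TRXD9-2 and PDIA, among its 28 named genes. Chromosomes 3, 12 and 17 held 2 each, among 38, 26 and 14 named genes. Over all chromosomes the 14 genes were among 492 named ones. PDI3 and PDI2 on chromosome 17 were close together, 1485 bases apart on the same strand with 1 gene between them. That gene, Cz17g07110 (740531 to 741078), lay on the opposite strand, had 363 coding bases in 2 segments and no name. PDI2 and PDI3 had no coding segment of equal length. Their last segments were close in length, with 161 and 159 bases, but differed in phase. PDI-1 and TRX3 on chromosome 3 were 49231 bases apart with 13 genes between them, and TRXD9-2 and PDIA on chromosome 13 were 99936 bases apart with 34 between. The other pairs on a chromosome were at least 437853 bases apart.

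Distances between genes were measured between their coding regions, so any untranslated sequence counts as distance. The nearest neighbour was 251 to 1244 bases away, with a median of 707.5 bases against 649 over chromosomal genes, and 6 of the 14 were closer to it than the chromosomal median, as 50.0% of chromosomal genes were. Of the 28 sides of the 14 genes, where Cz17g07110 counts for both PDI3 and PDI2, 12 had a neighbour on the same strand, 42.9% against 48.3% over chromosomal genes. Upstream, 8 of the 14 genes had a divergent neighbour, whose 5′ end faces theirs, as 51.7% of chromosomal genes did. These lay at 396 to 885 bases. Their median was 716 bases, against 939 for divergent neighbours over chromosomal genes. Downstream, 8 of the 14 had a convergent neighbour, again against 51.7% of chromosomal genes, at a median of 1307.5 bases against 1054. PDI2 had the closest of these, Cz17g07110 at 251 bases.

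**Figure D5:**
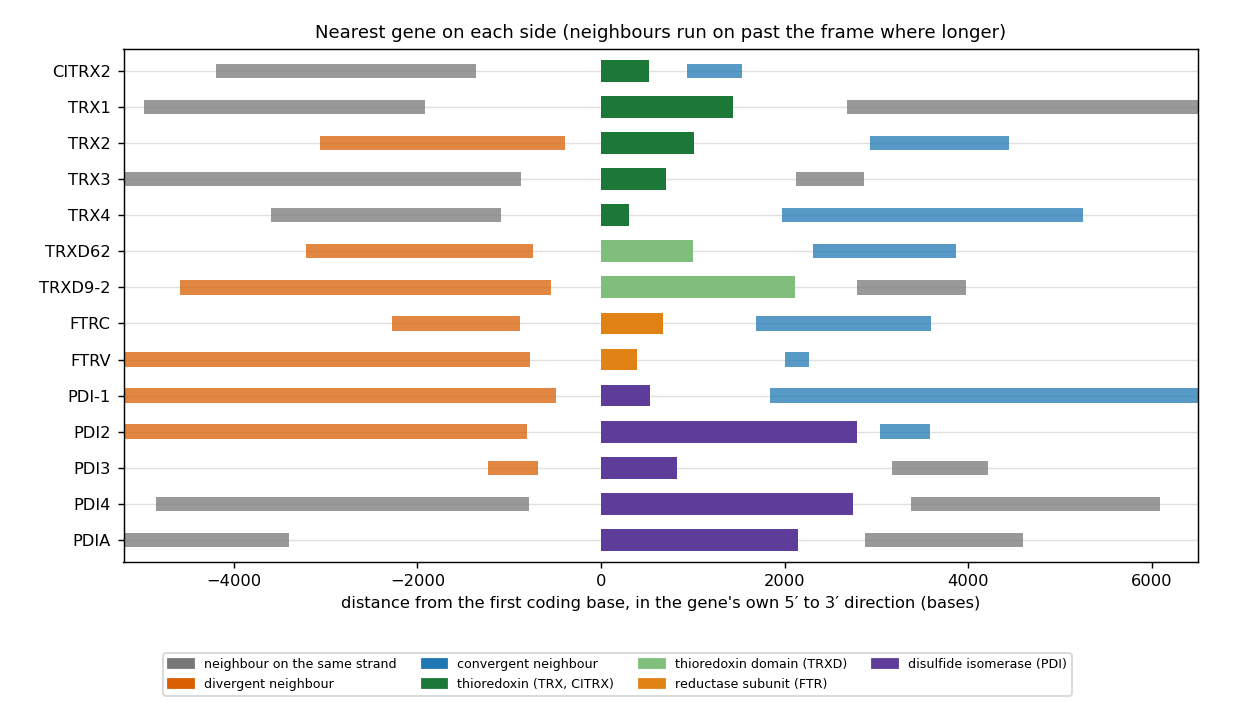
Each of the 14 genes from its first coding base (distance in bases, in the gene's own 5′ to 3′ direction) with the nearest gene on either side, coloured by whether it lies on the same strand, is divergent or is convergent. The 8 divergent neighbours all begin within 885 bases, and the neighbour upstream of PDIA is the most distant at 3403 bases.

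TRX2 was the 1 thioredoxin proper with a divergent neighbour, Cz13g13130 at 396 bases, and had Cz13g13150 downstream at 1912. CITRX2 lay 1363 bases downstream of CIT (Cz02g27080), a citrate synthase gene on the same strand, and 414 bases from the convergent Cz02g27100. TRX1 stood between Cz14g25120 at 1919 bases and Cz14g25100 at 1244, all on the minus strand. TRX3 likewise stood between Cz03g29240 at 871 bases and Cz03g29220 at 1414, all on the minus strand. TRX4 lay 1090 bases from Cz07g25030 on the same strand and 1659 from the convergent Cz07g25050. CIT was the only named gene that directly adjoined any of the 14, over their 28 sides. Names were rare, at 3.41% of chromosomal genes.

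TRXD62 had Cz05g17140 divergent at 746 bases and Cz05g17160 convergent at 1307. TRXD9-2 had Cz13g17230 divergent at 545 bases and Cz13g17250 on its own strand at 673. FTRC had Cz01g33160 divergent at 885 bases and Cz01g33180 convergent at 1014. FTRV had Cz12g03220 divergent at 769 bases and Cz12g03240 convergent at 1613. Both reductase subunits were thus flanked by a divergent and a convergent gene, as were TRX2, TRXD62, PDI-1 and PDI2. The share of chromosomal genes flanked by both kinds was not computed. Taken singly, 51.7% had a divergent gene upstream and 51.7% a convergent gene downstream.

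PDI4 lay in a run of minus-strand genes, with Cz12g23190 upstream at 784 bases and Cz12g23170 downstream at 632. PDIA lay in another, with Cz13g18310 upstream at 3403 bases and Cz13g18290 downstream at 729. PDI-1 had Cz03g29100 divergent at 495 bases and Cz03g29080 convergent at 1308. PDI2 had Cz17g07130 divergent at 803 bases. PDI3 had Cz17g07110 divergent at 686 bases and Cz17g07090 downstream on its own strand at 2344.

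The nearest named gene was a median of 10069 bases away with 2.5 genes between, against 39885 bases and 10 genes over chromosomal genes, and 32338 bases and 8 genes over named ones. For PDI-1, PDI2 and PDI3 the nearest named gene was itself one of the 14. CITRX2 adjoined CIT, as given above. FTRC was 3553 bases from SCL1 (Cz01g33150), a succinyl-CoA synthetase subunit gene, with 1 gene between. TRXD62 was 8174 bases from ECT (Cz05g17180), an enzyme of phospholipid synthesis, with 2 between. TRXD9-2 was 15272 bases from SACPD2 (Cz13g17200), a stearoyl-ACP desaturase, with 3 between. PDIA was 18659 bases from DGD1 (Cz13g19030), which makes a galactolipid of plastid membranes, with 3 between. TRX2 was 11964 bases from BKT1 (Cz13g13100), a β-carotene ketolase on the way to astaxanthin, with 3 genes between. FTRV was 5196 bases from CRTISO1 (Cz12g03260), a carotene isomerase, with 2 between. TRX1 was 5988 bases from PAO4 (Cz14g25130), a pheophorbide a oxygenase of chlorophyll breakdown, with 1 between. TRX3 was 25251 bases from CLPS1 (Cz03g30050) with 5 between. PDI4 was 117453 bases from GPD2 (Cz12g24180), a glycerol-3-phosphate dehydrogenase, with 29 between. TRX4 was the most isolated, 135704 bases and 36 genes from MME5 (Cz07g26110), an NADP-malic enzyme.

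Other genes of the pathway were sought by 17 name and word patterns. The pattern for ferredoxin-thioredoxin reductase found FTRC and FTRV only. That for thioredoxin reductase found the same genes, through the words Ferredoxin-Thioredoxin Reductase in their descriptions, and no named gene of another thioredoxin reductase. Peroxiredoxin, glutaredoxin, methionine sulfoxide reductase, catalase, superoxide dismutase and ascorbate peroxidase matched no named gene. Names were given to 3.41% of chromosomal genes, so this does not tell whether the genome holds such genes. The chloroplastic glutathione reductase GSR (Cz09g09050, chromosome 9, 928160 to 930673) had 1302 bases in 4 segments, at a low model score of 0.27.

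The patterns for enzymes known in plants to be switched by thioredoxin matched 18 genes. Of these, FBP3A (Cz16g19090), the longest with 1719 bases in 9 segments, and FBP3B (Cz12g10060) are described as fructose-2,6-bisphosphate phosphatases, a different enzyme from the one thioredoxin regulates. The other 16 genes, 15 of them on chromosomes, had a median coding length of 1105.5 bases and a mean of 5.50 introns, and none was without introns. They were matched by enzyme name, and the form that thioredoxin regulates was not told apart from others. The chloroplastic fructose-bisphosphatase FBP (Cz01g04250), added after its values were seen, had 1332 bases in 6 segments. Sedoheptulose-bisphosphatase, an enzyme of the Calvin cycle, had 2 genes named SBP. The longer (Cz01g42020) had 1194 bases in 8 segments, and the other, described as chloroplastic, had 972 in 6. The longer of 2 Rubisco activases, RCA1 (Cz03g15230), had 1638 in 7. The longer of 2 ATP synthase gamma subunits, ATPC1 (Cz09g21130), had 1110 in 6. GAPDH (Cz05g34160), a glyceraldehyde-3-phosphate dehydrogenase, had 1161 in 7. The longest of 5 malate dehydrogenases, MDH5 (Cz04g33150), had 1272 in 7. The model of phosphoribulokinase, PRK (Cz07g08080, chromosome 7, 832861 to 833414), had 258 bases in 2 segments, fewer bases than the 309 of TRX4. Whether this model holds the whole coding region was not checked.

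The ferredoxin pattern matched 9 genes besides the reductase subunits, with a median of 450 coding bases. They include FNR and NIR1, enzymes that use ferredoxin. The longest was FDX5 (Cz07g16090) with 3546 bases in 16 segments, at a score of 0.48. HCF164A (Cz07g07160) and HCF164B (Cz08g24090), described as Trx-like and named after a thylakoid protein of Arabidopsis, were missed by the rule and picked out after their values were seen. They had 375 and 708 coding bases with 1 intron each.

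Model scores of the 14 genes ran from 0.37 to 1 with a median of 0.86, against 0.78 over chromosomal genes. They were at least 0.5 in 12 genes, all but FTRC and PDIA, as in 80.1% of scored chromosomal genes. The thioredoxins proper had scores of 0.78 for TRX4, 0.98 for TRX3, 0.99 for TRX2 and CITRX2, and 1 for TRX1. Names of 12 of the 14 genes carried no version mark, all but FTRC and FTRV, whereas 24.0% of named chromosomal genes had none.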

How the data were processed

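The file analysed was the gene annotation the authors deposited for the whole series, with positions counted from 1 on an assembly of 220 sequences. Its build is not given in the sources used here. STAR 2.4.0j and Cuffdiff 2.2.1 appear in the submitters' processing notes without a stated role. The score of a gene model is as the authors deposited it, and what it measures is not stated in the file. The file holds no sample values, so no read depth, replicate or test between conditions entered, and 0 sample columns were passed over.

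Coding segments were joined by transcript in Python 3.11.15 with numpy 2.4.6, the interval used in the alternatives came from scipy 1.17.1 and figures from matplotlib 3.10.9. The reader was tested on simulated data. An intron is the gap between neighbouring segments. Its phase came from the phase field, and the segment lengths gave the same phase in 32 of 32 introns. Percentiles count ties by their middle rank. All values are descriptions of gene models, and none was tested.

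The members and lists were chosen with earlier results of these data known. Every member and its direct neighbours were named, the genes sharing the longest run of segments (up to 3 per member), and the longest match of each pathway pattern. Nearest named genes, shared last segments and first introns were added after the data were seen.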

Additional observations from a re-analysis of the deposited data

How the results depend on the processing

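Every result here is a value without a test. A value counted as moved when it left the spread over the 14 genes (1 SD, or the 95% Clopper-Pearson interval for the phase share), and a count when it changed by over 1.5 times. Without the genes named PDI, 9 genes were left, with 7 same-strand neighbours. An alternative chosen after seeing the data kept only genes whose description holds the word thioredoxin. It left 8 genes, with 2 lacking introns and 6 same-strand neighbours. All these counts are over fewer genes than the 14, so their fall shows no change in share. With segment lengths allowed to differ by 3 bases, 6 members in place of 1 shared a run of 2 internal segments with another gene. Of chromosomal genes with 2 or more internal segments, 90.0% in place of 48.3% did, shares not matched to the number of segments. The other 50 alternative values stayed within these bounds, among them those with a model score of at least 0.5 and with HCF164A and HCF164B. Medians and means over sets that share most of their genes can hardly leave a spread of single genes. Staying within the bounds therefore says little of their stability. The set by name alone and the set without FTRC and FTRV are the same 12 genes, so their values are equal and add nothing to each other. A search of all sequences, a minimum intron of 20 bases and a phase computed from segment lengths could not change a value. No gene outside the chromosomes met the rule, the shortest intron of the members had 73 bases, and both phases were equal in all 32 introns. Leaving out 1 gene in turn can hardly move such values past these bounds, so it says nothing of their stability. Median coding length then ran from 471 to 504 bases, mean intron number from 2 to 2.46, genes without introns from 3 to 4, the phase 0 share from 57.1 to 64.3%, median intron length from 231.5 to 260 bases, nearest neighbour distance from 686 to 729 bases and same-strand neighbours from 10 to 12. Against named instead of all chromosomal genes, the difference in median coding length was −615 in place of −574.5 bases, that in mean intron number −2.59 in place of −1.79, that in median intron length −23 in place of −10 bases and that in the phase 0 share 5.48 in place of 6.49 percentage points. No paired analysis was possible because no sample has values here. Precision is limited by the gene models, most of them predicted, and by names that cover few genes.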
